A study of Mus musculus with 69 samples.

Results

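The genes described are those of the cytosolic ribosomal proteins. They were chosen by symbol alone: Rpl or Rps followed by a number, with or without a letter suffix, the 3 acidic stalk proteins Rplp0, Rplp1 and Rplp2, and Rpsa, with at least 100 counts over the 65 original libraries. Of 24523 gene symbols with counts, 85 matched the pattern and 82 passed the minimum, 49 of the large and 33 of the small subunit. Rpl10l (29 counts), Rpl39l (70 counts) and Rpl26 (0 counts) did not. The 82 include 5 divergent paralogs (Rpl3l, Rpl7l1, Rpl22l1, Rps4l and Rps27l) that sit beside a standard gene of the same name stem.

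Whole kidneys came from female NZB/W F1 mice, a hybrid strain that develops lupus nephritis with age, kept under 12 h of light and 12 h of dark and killed at fixed zeitgeber times (ZT, hours after lights on). Young mice (n = 30) were 12 weeks old and nephritic mice (n = 27) 30 to 45 weeks old, neither given treatment, and both were sampled at ZT0, ZT4, ZT8, ZT12, ZT16 and ZT20. Remission mice (n = 8) were 36 to 50 weeks old and were taken at ZT0 and ZT12 only, 8 weeks after induction of remission with 1 dose of cyclophosphamide and 6 doses of CTLA4Ig and anti-CD40L. The study asked how nephritis changes the daily course of renal transcripts and whether remission restores it. Young and nephritic libraries fall into an RNASeq Set 1 (6 young and 5 nephritic mice, ZT0 and ZT12 only) and a Set 2 (24 young and 22 nephritic mice, all time points), which the study's sample table lists separately. All remission libraries belong to a further library series, in which 2 young and 2 nephritic mice of Set 2 were sequenced again (4 repeat libraries).

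A cytosolic ribosome joins a small subunit, which decodes the mRNA, to a large subunit, which forms the peptide bond, and each subunit carries ribosomal RNA and 1 copy of nearly every ribosomal protein. The mRNAs of these proteins commonly begin with a terminal oligopyrimidine tract, a cytosine at the cap followed by a run of C and T bases. Through this tract their translation is switched together by mTOR, the kinase that couples growth to nutrients and growth factors. The RNASeq counts measure the abundance of these mRNAs and not how often they are translated.

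The first transcribed bases of the genes that recur below are shown because this tract is the feature most members are known to share. Each window runs from 5 bases before to 20 bases past an annotated start (RefSeq, GRCm38.p6, transcribed strand), and capitals mark a tract of a C and at least 4 further C or T bases that begins within 5 bases of the start.
Rplp2 (chr7:141447646-141447670, +): tcttcCTTTCgccgccggacgccgc
Rpl13a (chr7:45128726-45128750, -): gacaagaCCTCCTCCTTTCCCaggc
Rpl12 (chr2:32961707-32961731, +): gatccgtCTTTTCggctttcggctc
Rps21 (chr2:180257374-180257398, +): ccgccCTCCTgcccaatagtgctgc
Rpl38 (chr11:114668575-114668599, +): tcgttCTTTCCCCgttctcttcggt
Rpl35a (chr16:33056477-33056501, +): ccttcCTCTTTCCgccatcttggcg
Rps27l (chr9:66946081-66946105, +): ccgccgCCTCTatcccggaagttgc
Rplp0 (chr5:115559462-115559486, +): ttcgaggaccgcctggttctcctat
Rpsa (chr9:120127761-120127785, +): taaggacgtcatttccggccgcccg
Rpl41 (chr10:128549149-128549173, -): ggctcggaagtgacgacaccgagca
The tract was present for Rplp2, Rpl13a, Rpl12, Rps21, Rpl38, Rpl35a and the paralog Rps27l, and none began within 5 bases of the start for Rplp0, Rpsa and Rpl41. Of the 82 members, 61 had an entry in the promoter table, with 73 starts between them. Such a tract lay at 43.8% of the 73 starts against 18.3% of 32851 starts of all genes, and with the C at the annotated start itself at 19.2% against 2.51%. The ETS-type motif CCGGAAG, searched on both strands of the 300 bases around the start, was held by 34.2% against 8.86%, and the palindromic E-box CACGTG by 11% against 7.15%. A match describes the letters and not a used site, and an annotated start may lie a few bases from the real one.

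Total counts per library were 25257530 to 35744843 in young, 26596500 to 48075977 in nephritic and 13311278 to 21849912 in remission mice. Markers of the proximal tubule (10 of 10 listed genes in the files, including Slc34a1 and Lrp2) were present in every library and summed to 5719 CPM or more. For the members, CPM are a gene's counts relative to the scaled total of its library. Sums of markers, here and below, are relative to the unscaled total. Against their labels, 2 libraries stood apart. The repeat of nephritic ZT12 replicate 6 differed from its own original by 26.6 times the sampling noise, near the median of all 2346 pairs of libraries (28.2), and lay closest to nephritic ZT4 replicate 1 (4.17), whereas the other 3 repeats differed from their originals by 4.55 to 7.21 times. Remission ZT12 replicate 4 had 27 CPM of the clock gene Arntl, within the range of the remission mice of ZT0 (23.2 to 28.7) and above the other remission mice of ZT12 (3.2 to 4.89). The closest pair of all were nephritic ZT4 replicates 2 and 3 (2.05 times the noise), and remission ZT0 replicate 4 and ZT12 replicate 4 followed among the remission mice (2.94). Both pairs differed by more than sampling noise, but so did the repeats of 1 mouse, and by more, so that this measure does not show that the paired libraries came from different mice. They were counted as separate mice, as labelled. Counts of members are given below without these libraries as well.

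The members differed widely in level. Per kilobase of mRNA, the mean over the 57 young and nephritic mice ranged from 0.466 to 2174 CPM with a median of 465.7. The 3 highest were Rplp1 (2174 CPM per kb), a stalk protein that draws translation factors to the ribosome, Rpl41 (2075 CPM per kb), the shortest ribosomal protein, and Rps29 (1199 CPM per kb), a small-subunit protein of the decoding side. The 3 lowest were Rpl30 (0.466), Rpl32l (0.489) and Rpl3l (0.731 CPM per kb), the last being the striated-muscle paralog of Rpl3. In all, 71 members lay at or above 103 CPM per kb and 11 at or below 74.4, among them Rpl34, Rps27, Rpl29 and Rps18, standard components that every ribosome carries. The study's methods describe counts of uniquely aligned reads, but the submitters' processing notes name another aligner. Whether the deposited counts hold unique alignments only is thus not known. Members share a median of 35.8% of their 50-base stretches with transcripts of other genes. The share was 72.8% for Rpl30, 79.4% for Rps18 and 46.2% for Rps27 but 0% for Rpl32l and Rpl3l, and levels of members that share much of their sequence are uncertain. All comparisons below are within a gene between libraries.

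**Figure D1:**
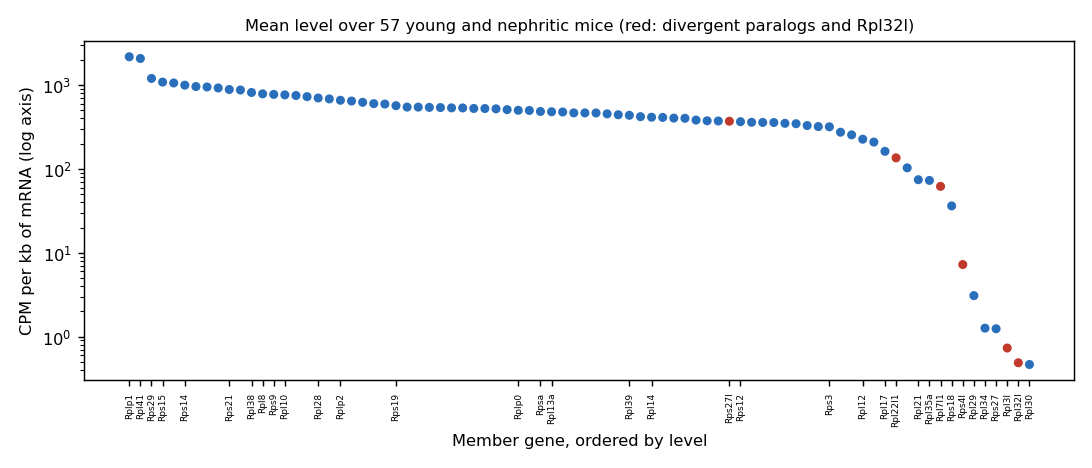
Mean level of each of the 82 genes over 57 young and nephritic mice, in CPM per kb of mRNA on a log axis, ordered from Rplp1 (2174) to Rpl30 (0.466), with genes described in the text named. Red points are the 5 divergent paralogs and Rpl32l. The line falls gradually over the 71 genes at 103 or more and drops steeply over the last 11.

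Together the 82 genes took 2.03 to 5.10% of a library's counts in young and nephritic mice. In Set 1 their share was 2.20 to 2.39% in the 6 young mice (median 2.32%) and 3.87 to 5.10% in the 5 nephritic mice (median 4.15%), with no overlap. In Set 2 it was 2.03 to 3.27% in the 24 young mice (median 2.87%) and 2.39 to 3.90% in the 22 nephritic mice (median 3.01%), so that these groups overlapped over most of their range. The remission mice lay between 2.81 and 4.24% (median 3.33%). Young and nephritic mice were thus separated in Set 1 and overlapped in Set 2, and each set is given separately below.

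**Figure D2:**
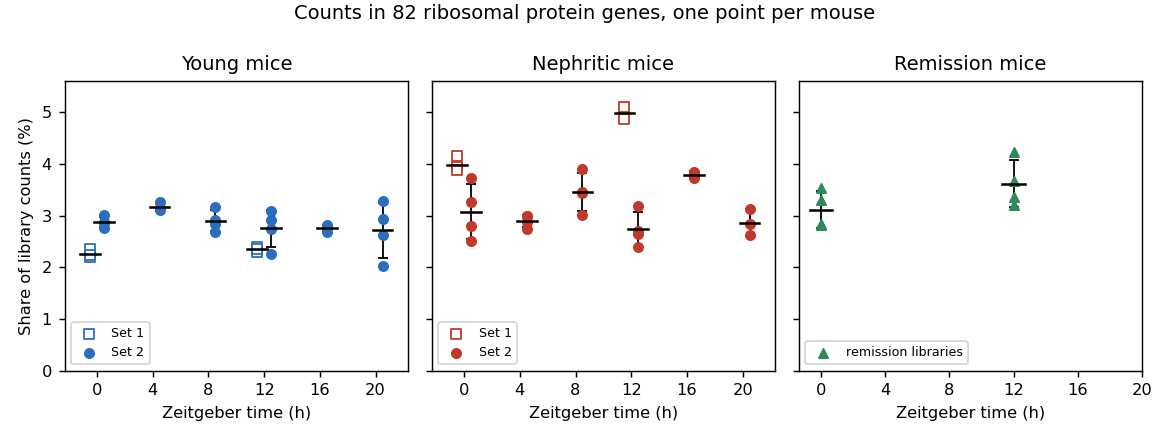
Share of library counts in the 82 ribosomal protein genes (%) against zeitgeber time (h), 1 point per mouse, with group mean and SD as bars. Open squares are Set 1 and filled circles Set 2. The 5 nephritic mice of Set 1 (3.87 to 5.10%) lie above all young mice, and the 3 nephritic mice of ZT16 lie close together (mean 3.79%).

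Averaged over the day with time point and set in the fit, 23 of 82 members were called higher in nephritic mice and 0 lower (edgeR quasi-likelihood F test, Benjamini-Hochberg adjusted p of at most 0.05 over 17521 genes). Of all genes tested, 28.1% were called higher and 33.9% lower. At an unadjusted p of 0.05 the counts were 28 higher and 1 lower (Rpl35a), and DESeq2 called 30 members. Without nephritic ZT12 replicate 6, 32 were called higher and 0 lower, and without nephritic ZT4 replicate 2 or 3, 35 and 38. Without young ZT0 replicate 3, nephritic ZT4 replicate 4 or nephritic ZT12 replicate 5, the counts were 35, 37 and 37. With all mice, the share of members called higher was thus near that of all genes, and their median log2 change was 0.10 against -0.03 over all genes. Of the large subunit 13 of 49 genes were called, of the small subunit 10 of 33, and of the divergent paralogs 0 of 5 (log2 changes from -0.09 for Rps4l to 0.16 for Rpl3l). The 5 largest changes were those of Rpl17, a protein at the exit of the peptide tunnel (log2 change 0.44, SE 0.14, adjusted p = 0.00561), Rpl13a, which leaves the ribosome in interferon-treated myeloid cells to silence mRNAs (0.38, SE 0.10, adjusted p = 0.00109), Rpl12, a protein of the stalk base (0.37, SE 0.07, adjusted p = 5.86e-06), and the low-count genes Rpl29 (0.30, SE 0.12, adjusted p = 0.0211) and Rpl34 (0.28, SE 0.11, adjusted p = 0.0236). Rplp0 (0.15, SE 0.06, adjusted p = 0.0239) and Rpsa (0.23, SE 0.08, adjusted p = 0.0169) also passed, and Rplp1 (0.11, adjusted p = 0.282) and Rplp2 (0.14, adjusted p = 0.157) did not. RNA of whole kidney cannot tell a change in the number of cells of a type from a change in RNA per cell.

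Within Set 1, the change was broad. Of 80 members with enough counts, 76 were higher in nephritic mice and 0 lower, where 31.1% of 15654 genes were called higher and 28% lower, and at an unadjusted p of 0.05 the counts were 77 higher and 0 lower. Their log2 changes ran from 0.12 to 1.43 with a median of 0.72, against 0.03 over all genes. In 67 of 82 members every nephritic mouse lay above every young mouse, as did 17.3% of 17643 genes. The 4 members not called were Rpl9, Rpl34, Rpl7a and Rps27. This fit was added after the data had been seen. In Set 1, mice of the same diagnosis and time point share the first part of their names, and no name part occurs in both diagnoses. Name group and diagnosis thus cannot be told apart there.

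Among the stalk proteins, Rplp0, the scaffold that anchors the stalk to the large subunit, was 529, 555 and 604 CPM (lowest, median, highest) in young and 765, 929.7 and 1031 CPM in nephritic mice of Set 1. Rplp1 was 733, 788 and 888 CPM in young and 1340, 1529 and 1762 CPM in nephritic mice. Rplp2, which pairs with Rplp1, was 164, 187 and 192 CPM in young and 349, 378 and 403 CPM in nephritic mice. None of these groups overlapped, and the log2 changes were 0.69 (SE 0.09, adjusted p = 0.000151), 0.95 (SE 0.10, adjusted p = 4.33e-05) and 1.08 (SE 0.07, adjusted p = 1.15e-05).

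In the rest of the large subunit, the largest change in Set 1 was that of Rpl13a, at 270.1, 340.4 and 371 CPM in young and 781, 868 and 989 CPM in nephritic mice (log2 change 1.43, SE 0.09, adjusted p = 1.15e-05). The groups were separated by more than the whole range of the young mice. Rpl12 was 206, 226 and 244 CPM in young and 348, 457 and 572 CPM in nephritic mice, again without overlap (log2 change 1.03, SE 0.10, adjusted p = 3.52e-05). Rpl21 (log2 change 1.29) lay between them. Rpl17 was more variable, with 57.1 to 163 CPM in young and 99.6 to 254 CPM in nephritic mice, and its groups overlapped.

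In the small subunit, Rpsa, which doubles as a laminin-binding protein at the cell surface, was 538, 573 and 624 CPM in young and 984, 1095 and 1474 CPM in nephritic mice of Set 1. The groups did not overlap, and the log2 change was 1.06 (SE 0.11, adjusted p = 3.69e-05). Larger changes were measured for Rps15 (1.15) and Rps12 (1.11). Rps19, the gene most often mutated in Diamond-Blackfan anaemia, changed by 0.94 (SE 0.09, adjusted p = 3.29e-05). All 33 small-subunit genes but Rps27 were called.

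The divergent paralogs had smaller or noisier changes in Set 1, and 5 of 5 were called. Rps4l was 4.22, 5.01 and 7.99 CPM in young and 7.16, 8.54 and 12.3 CPM in nephritic mice, with overlap (log2 change 0.76, SE 0.20, adjusted p = 0.00633). Rpl22l1, the paralog of Rpl22, was 55.8, 69.0 and 82.8 CPM in young and 81.6, 103.7 and 109.6 CPM in nephritic mice, the ranges overlapping slightly (log2 change 0.58, SE 0.09, adjusted p = 0.000404). Rpl3l changed by 0.64 (adjusted p = 0.0254), Rpl7l1 by 0.20 (adjusted p = 0.0217) and the p53 target Rps27l by 0.19 (adjusted p = 0.0342).

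Within Set 2, the members did not move together. Over all time points 4 were higher, Rpl17 (log2 change 0.38), Rpl34 (0.31), Rpl12 (0.25) and Rpl39 (0.14), and 4 were lower, Rpl32l (-0.58), Rps4l (-0.26), Rpl35a (-0.25) and Rpl7l1 (-0.08), where 27.9% of 17339 genes were called in each direction. The median log2 change of the members was -0.01. At ZT0 and ZT12 alone, the time points Set 1 holds, 0 members were higher and 7 lower (21.6% and 17.1% of 16100 genes), with a median of -0.08. Those 7 were Rps4l, Rpl35a, Rpl36, Rps21, Rpl41, Rpl8 and Rps25. Without nephritic ZT12 replicate 6, 0 were higher and 2 lower there (20.1% and 14.7% of 16001 genes). Over all time points, 5 were called without nephritic ZT4 replicate 2 or replicate 3 and 3 to 5 without young ZT0 replicate 3, young ZT8 replicate 2, nephritic ZT0 replicate 4 or nephritic ZT20 replicate 1. In 0 members were all nephritic mice of Set 2 above or below all young mice. Over 17643 genes these shares were also small, at 0.986% above and 0.0113% below.

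The same genes that were separated in Set 1 overlapped in Set 2. At ZT0 and ZT12 of Set 2, Rplp0 was 550.9, 653 and 708 CPM in the 8 young and 545, 637 and 822 CPM in the 8 nephritic mice. Rpl13a was 337, 462 and 562 CPM in young and 322, 449 and 618 CPM in nephritic mice. Rplp2 was 228, 289 and 327 CPM in young and 190.4, 257 and 304 CPM in nephritic mice. Rpsa was 549, 714 and 818 CPM in young and 545, 704 and 841 CPM in nephritic mice. In all 4 genes the young and nephritic ranges overlapped.

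Set and diagnosis were therefore tested together at ZT0 and ZT12, a test added after the data had been seen. The change in Set 1 exceeded that in Set 2 in 73 of 82 members and was exceeded in 0, where 16.7% of 16684 genes were called in the positive and 18.4% in the negative direction. The median of the members' differences was 0.76 on the log2 scale, against 0.02 over all genes. For Rplp0 the difference was 0.66 (SE 0.13, adjusted p = 0.000571), for Rplp2 1.25 (SE 0.13, adjusted p = 2.28e-06), for Rpl13a 1.38 (SE 0.18, adjusted p = 1.41e-05) and for Rpsa 1.07 (SE 0.16, adjusted p = 3.53e-05). The 9 members not called were Rpl34, Rpl9, Rpl23a, Rpl7a, Rpl32l, Rpl17, Rps27, Rpl29 and Rpl30. Both diagnoses took part in the contrast between sets. Young mice of Set 1 were lower than young mice of Set 2 at the same time points in 78 of 82 members (median log2 difference -0.28, all genes -0.02), and nephritic mice of Set 1 were higher than those of Set 2 in 82 of 82 (median 0.51, all genes 0.00).

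**Figure D3:**
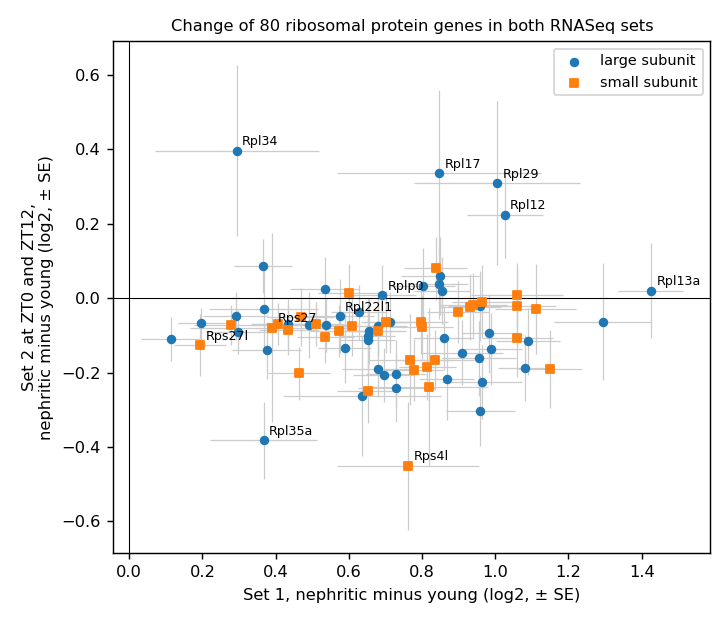
Log2 change of nephritic against young mice in Set 1 (x axis) and in Set 2 at ZT0 and ZT12 (y axis) for the 80 members tested in both, with SE as bars. All 80 lie to the right of 0 in Set 1 (0.12 to 1.43), while in Set 2 most lie at or below 0 (median -0.08).

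Several measures moved with the set. In Set 1, the macrophage markers (9 of 10 listed genes in the files, none at 0 throughout) summed to 180.4 to 215 CPM in young and 799 to 3023 CPM in nephritic mice, and in Set 2 to 114 to 276 CPM and 324 to 1557 CPM. T cell markers (9 of 10) summed to 7.20 to 9.91 and 25.4 to 275 CPM in Set 1 and to 6.62 to 13.8 and 11.5 to 94.1 CPM in Set 2. B and plasma cell markers (10 of 11) summed to 145 to 248 and 302 to 3715 CPM in Set 1 and to 116 to 199.8 and 162 to 881 CPM in Set 2. Proximal tubule markers summed to 30830 to 32970 CPM in young and 5719 to 24880 CPM in nephritic mice of Set 1, and to 29200 to 34900 and 7037 to 29500 CPM in Set 2. Their medians in nephritic mice were 9516 CPM in Set 1 and 25630 CPM in Set 2. Tubular injury markers (8 of 8) summed in Set 1 to 1556 to 2259 and 2320 to 37390 CPM (nephritic median 18100). In Set 2 they summed to 1672 to 2663 and 1873 to 31660 CPM (nephritic median 6156). Adipocyte markers (6 of 6) summed to 65.3 to 98.9 and 143 to 224 CPM in Set 1 and to 16.7 to 457 and 18.6 to 491 CPM in Set 2. Macrophage markers thus did not overlap between young and nephritic mice in either set. T cell, B and plasma cell, proximal tubule, tubular injury and adipocyte markers did not overlap in Set 1 but overlapped in Set 2. The members' share of counts also overlapped in Set 2 only. The part of these cells and of tubular injury in the members' change was not tested.

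Length moved with the contrasts as well. Only genes of known transcript length and above a minimum mean level entered here, so that members of low level were left out. In Set 1 the median log2 change of members with transcripts of up to 600 nt was 0.76 (24 genes) and that of the 105 other genes of this length 0.08, while the 2907 other genes over 3000 nt had a median of -0.29. In Set 2 at ZT0 and ZT12 the corresponding medians were -0.19, -0.37 and -0.01. Up to 3000 nt, members lay above other genes of equal length in both sets. The 1 member over 3000 nt did so in Set 1 (0.93), whereas in Set 2 it lay slightly below the other genes (-0.04 against -0.01). The part of RNA quality or library preparation was not tested.

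The neighbouring gene groups of the translation machinery did not follow one course. Of 23 listed translation factors with the same kind of mRNA start, 3 were higher and 8 lower over the day in both sets together. Hnrnpa1, a splicing factor (log2 change 0.45), and Npm1, a nucleolar chaperone (0.21), rose, and Eif2s3x (-0.32) and Eif4a2 (-0.26), both initiation factors, fell. In Set 1 alone 13 were higher and 2 lower, and in Set 2 alone 4 and 8. Of 50 genes of ribosome biogenesis, 24 were higher and 6 lower, led by the snoRNP proteins Nop56 (0.46) and Nop58 (0.41), with Imp4 (-0.16) and Nop16 (-0.12) falling most. This group kept its direction in Set 1 (28 higher, 3 lower) and in Set 2 (25 and 5).

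Of the 78 mitochondrial ribosomal protein genes, 66 were lower and 1 higher (median log2 change -0.20, all genes -0.03). Mrps31 (-0.38) and Mrpl50 (-0.37) fell most, and Mrpl33 rose (0.22). In Set 1 there were 12 higher and 12 lower, and in Set 2 0 higher and 74 lower. Among 21 regulators of mTOR signalling and of oligopyrimidine mRNAs, 4 were higher and 11 lower. Myc, a transcription factor that drives ribosome production, rose by 1.44 on the log2 scale and Ddit4, an mTOR inhibitor, by 0.62, while Mtor itself (-0.40) and Eif4ebp2 (-0.39), a repressor of cap binding, fell. The median log2 change was -0.01 for the translation factors, 0.08 for the biogenesis genes and -0.07 for the mTOR list, beside -0.03 over all genes.

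Compared at single time points, 22% of the members were called at ZT0 and at ZT12, 26.8% at ZT4 and 3.66% at ZT16. Whether the change differed between hours is tested further below by the diagnosis by time terms, which 1 of 82 members passed over both sets. At ZT0, 18 were higher and 0 lower in nephritic mice (20.1% and 19.4% of all genes), and at ZT12, 18 were higher and 0 lower (25.8% and 24.2%), both time points holding Set 1 mice. These shares lie near those of all genes, and in Set 2 alone 0 members were higher at these hours. Without 1 mouse the count at ZT0 ran from 9 (without nephritic replicate 4) to 41 (without nephritic replicate 5). It was also 10 without nephritic replicate 3 and 29 to 37 without young replicates 1, 2, 3 or 4. Without the nephritic ZT12 replicate 6, whose repeat did not match it, the count at ZT12 was 36. Without either of the 2 nephritic ZT12 mice of Set 1 it was 3, without nephritic replicate 4 it was 28, and without young replicates 1, 5, 6 or 7 it was 7 to 10. At ZT4, where both groups are of Set 2, 0 were higher and 22 lower (13.9% and 16.4% of all genes), with 1 higher and 45 lower at an unadjusted p of 0.05. Rplp0 (-0.29, adjusted p = 0.108) and Rpsa (-0.47, adjusted p = 0.074) missed the threshold there. At ZT8 and ZT20, 0 were called (2 each at an unadjusted p of 0.05; with RLE size factors also 0), where 3.66% and 5.48% of all genes were. At ZT16, 3 were higher and 0 lower (10.1% and 7.66% of all genes), and 18 were higher at an unadjusted p of 0.05. The share called at ZT16 was thus below that of all genes.

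Among the members called lower at ZT4, the fall was largest for Rpl35a. It was 40.07 to 50.5 CPM in the 4 young and 22.5 to 32.9 CPM in the 4 nephritic mice (log2 change -0.71, SE 0.17, adjusted p = 0.00187). Rpl28 was 570.3 to 719.9 CPM in young and 406 to 441 CPM in nephritic mice (log2 change -0.59, SE 0.21, adjusted p = 0.0309). Rplp1 was 1150 to 1533 CPM in young and 802 to 1022 CPM in nephritic mice (log2 change -0.58, SE 0.21, adjusted p = 0.0269). None of these pairs of groups overlapped. Left out in turn, each mouse of ZT4 left between 6 (without nephritic replicate 1) and 24 members called lower, with 9 without nephritic replicate 2 and 11 without nephritic replicate 3, the closest pair. The counts were also 10 without nephritic replicate 4 and 10, 13 and 11 without young replicates 1, 2 and 4.

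The rise at ZT16 was called for Rpl13a, Rps29 and Rpl12. Rpl13a was 397 to 456 CPM in the 4 young and 720.5 to 753 CPM in the 3 nephritic mice (log2 change 0.80, SE 0.26, adjusted p = 0.0265). Rps29 was 386 to 475 CPM in young and 574 to 701 CPM in nephritic mice (0.61, SE 0.21, adjusted p = 0.0366). Rpl12 was 237 to 249 CPM in young and 344 to 372 CPM in nephritic mice (0.53, SE 0.18, adjusted p = 0.0387). The groups did not overlap in any of the 3 genes, but 0 members were called without young replicate 2, young replicate 3 or nephritic replicate 1, and 1 without nephritic replicate 2.

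Within nephritic mice, 46 of 82 members differed between the 6 time points (edgeR quasi-likelihood F test with set as a covariate), where 21.6% of 16872 genes did. DESeq2 called 58 and limma voom 47. In Set 2 alone, 54 of 82 passed and 26.9% of 16651 genes did. Over both sets, large-subunit (26 of 49) and small-subunit genes (20 of 33) both took part, and 0 of the 5 divergent paralogs passed. In Set 2 alone the paralog Rpl22l1 passed (adjusted p = 0.0347). The set covariate mattered, since without it 1 member passed. With the nephritic ZT12 replicate 6 left out the count was 45, without nephritic ZT4 replicate 2 or 3 it was 42 and 43, and with the repeats in place of their originals also 45. In Set 2 alone the counts without nephritic ZT12 replicate 6, ZT4 replicate 2 and ZT4 replicate 3 were 46, 52 and 50 (22.3%, 21.2% and 21.6% of all genes). A fit of a single 24 h cosine in place of 6 levels called 0 members.

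The nephritic mice of Set 2 also fall into name groups, since the first part of a mouse's name recurs across time points, and what it stands for is not given in the sources used here. Names of young mice of Set 2 begin with the hour itself, so that no such block could be fitted for them. The 3 mice of ZT16 and the 4 mice of ZT4 have no such name part in common, so that hour and name group cannot be told apart between these hours alone. With the name part as a block in Set 2, a fit added after the data had been seen, 2 of 82 members differed between time points, Rpl38 (adjusted p = 0.0358) and Rps21 (adjusted p = 0.0412), where 3.01% of 16651 genes did. At an unadjusted p of 0.05 there were 43. The count of 54 thus depends on leaving the name groups out of the fit, and the cause was not tested.

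In time-point means fitted with set but without the name groups, the members had a pair of highs. The same mice enter every member, so the counts that follow are not independent. Shares over all genes are not given for them. Of the 82 members, 52 were highest at ZT16 and 24 at ZT8, and the median deviation from a gene's daily mean was 0.26 at ZT16 and 0.21 at ZT8 on the log2 scale, with -0.13 at ZT4, -0.12 at ZT12, -0.11 at ZT20 and -0.10 at ZT0. The median distance from the highest to the lowest time point was 0.48. The share of library counts in Set 2 was 3.79% ± 0.07 at ZT16 (SD, n = 3) and 3.46% ± 0.36 at ZT8 (n = 4), against 2.90% ± 0.12 at ZT4 (n = 4), 2.73% ± 0.34 at ZT12 (n = 4), 2.87% ± 0.25 at ZT20 (n = 3) and 3.08% ± 0.53 at ZT0 (n = 4).

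**Figure D4:**
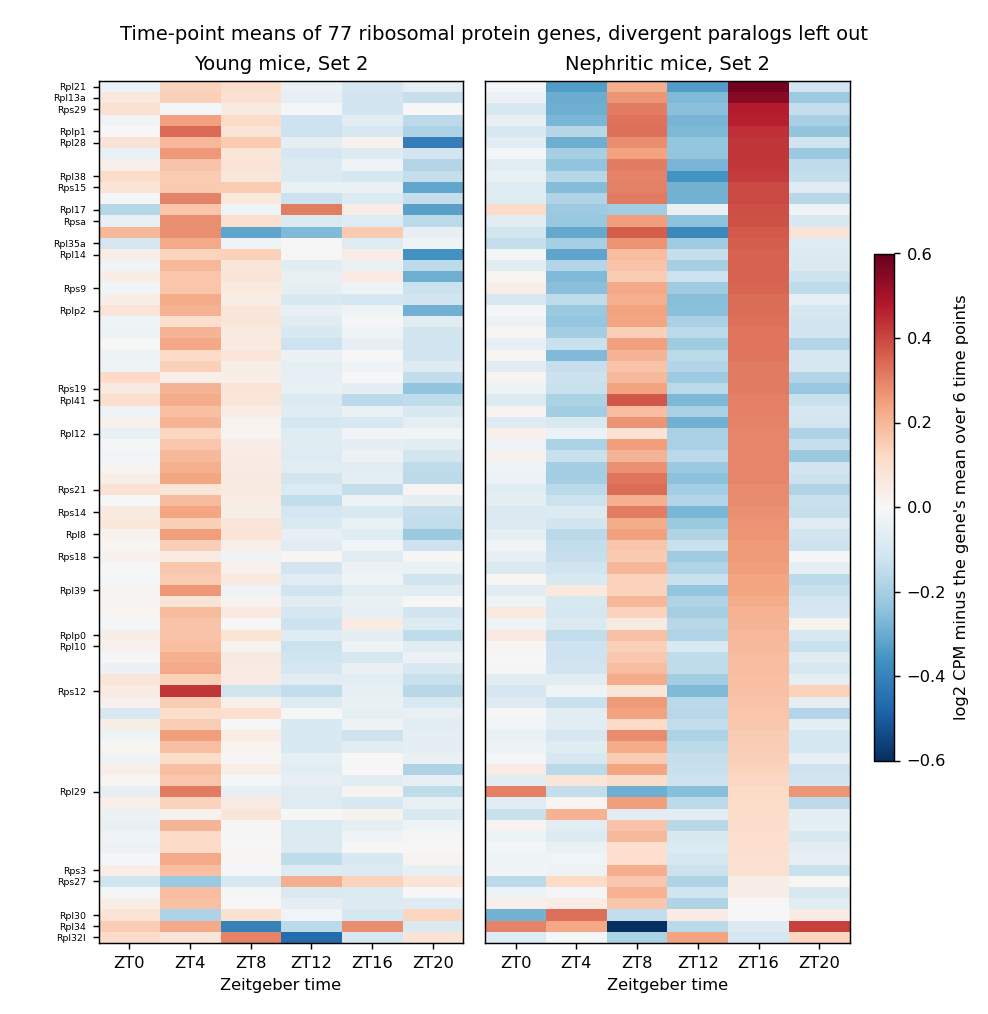
Time-point means of 77 members in young (left) and nephritic mice (right) of Set 2, 1 row per gene with genes described in the text named, as log2 CPM minus the gene's mean over the 6 time points; red is above and blue below it. Nephritic mice show a column of high values at ZT16 and a weaker one at ZT8 with lows at ZT4 and ZT12, and young mice a weaker high at ZT4.

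The values that follow are of Set 2 and the adjusted p of both sets. Rps21, a small-subunit protein, had the smallest p (F = 13.8, adjusted p = 0.001). In nephritic mice it was 277 to 350.4 CPM at ZT0, 272 to 318 CPM at ZT4, 381 to 451 CPM at ZT8, 269 to 305 CPM at ZT12, 379.5 to 425 CPM at ZT16 and 274 to 302 CPM at ZT20. All mice of ZT8 and ZT16 lay above all others of Set 2. The 5 nephritic mice of Set 1, taken at ZT0 and ZT12, had 402 to 463 CPM, a level that the fit takes up by the set covariate. Rpl41 (adjusted p = 0.00312) was 957 to 1264 CPM at ZT8 and 1060 to 1069 CPM at ZT16, and 633 to 792 CPM at ZT12. Rps29 (adjusted p = 0.00361) was 509.6 to 644 CPM at ZT8 and 574 to 701 CPM at ZT16, and 326 to 404 CPM at ZT4.

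Rpl38, which is needed for translation of Hox mRNAs in the embryo, was 307.5 to 381 CPM at ZT8, 360.1 to 379 CPM at ZT16 and 174 to 262 CPM at ZT12 (adjusted p = 0.00425). In Set 2 its mice of ZT8 and ZT16 did not overlap with those of ZT12, but the 2 nephritic ZT12 mice of Set 1 had 372 and 401 CPM, at or above the range of ZT8 and ZT16. Of the stalk proteins, Rplp1 (1360 to 1406 CPM at ZT16, 802 to 1022 CPM at ZT4, adjusted p = 0.00495) and Rplp2 (331 to 347 CPM at ZT16, 216 to 239 CPM at ZT4, adjusted p = 0.00845) passed, and Rplp0 (746 to 814 CPM at ZT16, 584 to 630.1 CPM at ZT4) did not (adjusted p = 0.17). Rpsa was 967 to 997 CPM at ZT16 and 600 to 677 CPM at ZT4 (adjusted p = 0.0315).

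Other cells moved with time point in these mice. At ZT16 the nephritic mice had B and plasma cell markers of 689.5 to 784 CPM in sum, against 162 to 288 CPM at ZT8 and 244.7 to 558 CPM at ZT4. T cell markers summed to 58.9 to 94.1 CPM at ZT16, 11.5 to 34.6 CPM at ZT8 and 24.4 to 54.4 CPM at ZT4, and macrophage markers to 1010 to 1540, 324 to 1557 and 703 to 957.5 CPM. At ZT12, where the members were low, B and plasma cell markers summed to 405 to 881 CPM. Adipocyte markers (6 of 6 in the files) summed to 228 to 487 CPM at ZT16, without overlap with ZT4 (18.6 to 49.4 CPM), ZT8 (23.9 to 106 CPM) or ZT12 (22.5 to 128 CPM), and to 237 to 252 CPM at ZT20 and 55.03 to 491 CPM at ZT0. Lymphocyte and adipocyte markers were thus high at ZT16 and low at ZT8, and the members were high at both. All 10 tested B and plasma cell, all 9 tested T cell and all 6 tested adipocyte markers differed between time points, and 0 of 9 macrophage markers did (1 at an unadjusted p of 0.05). The part of these cells in the members' course was not tested.

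Transcripts of neighbouring functions differed between time points in nephritic mice in 34.8% of translation factors, 38% of biogenesis genes and 17.9% of mitochondrial ribosomal protein genes, beside 56.1% of the members. Among genes above the minimum mean level used for the length comparison of the sets, length also moved with the contrast of ZT16 and ZT4. The median log2 difference was 0.47 for members of up to 600 nt, 0.19 for other genes of that length and -0.07 for other genes over 3000 nt.

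Within young mice, 7 of 82 members differed between time points, among them Rpl35a, Rpl28, Rps12, Rpl14 and Rpl8, where 39.8% of 16521 genes did. At an unadjusted p of 0.05 there were 19, and DESeq2 called 19. In Set 2 alone 4 passed, where 35.2% of 16267 genes did. The count depended on single mice, being 3 without any one of young ZT4 replicates 1, 2 and 4 and 30 without young ZT20 replicate 1. The daily course was shallow. Of the 82 members, 71 were highest at ZT4 and 44 lowest at ZT20, with a median distance of 0.30 on the log2 scale between the highest and lowest time point. In Set 2 alone 39 were lowest at ZT20 and 24 at ZT12. Every member is measured in the same mice, so these counts are not independent, and shares over all genes are not given. At ZT20, replicate 3 had 2.03% of its counts in the members and replicate 1 had 3.27%.

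In young mice Rps12 was 227 to 233 CPM at ZT4 and 98.6 to 227.9 CPM at the other time points of Set 2, where 1 mouse of ZT0 reached the ZT4 range (adjusted p = 0.0224). Rpl35a was 40.07 to 50.5 CPM at ZT4, 32.5 to 38.8 CPM at ZT16, and at ZT0 35.4 to 36.5 CPM in Set 2 and 27.3 to 32.3 CPM in Set 1 (adjusted p = 0.0109). The highest mice of ZT12 (44.2 CPM) and ZT20 (41.6 CPM) reached the range of ZT4. Rpl28 was 570.3 to 719.9 CPM at ZT4 and 267 to 517 CPM at ZT20 (adjusted p = 0.0125), and Rpl14 was 409 to 503 CPM at ZT4 and 232 to 411 CPM at ZT20 (adjusted p = 0.0246). Rpl8, which lines the peptidyl transferase centre, was 751 to 864 CPM at ZT4 and 419 to 731 CPM at ZT20 (adjusted p = 0.026). The mice of ZT20 were the most scattered, with a share of library counts of 2.71% ± 0.53 (SD, n = 4) against 3.16% ± 0.07 at ZT4 (n = 4). Rplp0 (adjusted p = 0.054), Rplp1 (0.0699), Rplp2 (0.113), Rpsa (0.0807) and the paralogs Rpl3l (0.596), Rpl7l1 (0.53), Rpl22l1 (0.277), Rps4l (0.0554) and Rps27l (0.574) did not pass.

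Whether the course over the day differed between nephritic and young mice was tested by the diagnosis by time terms. Of the members 1, Rpl10, which joins the large subunit last, passed (F = 4.43, adjusted p = 0.0428), where 6.27% of 17521 genes did, and 43 members had an unadjusted p of at most 0.05. Rpl10 was 666 to 766 CPM at ZT4 and 591 to 645 CPM at ZT16 in young mice, and 523 to 562 CPM at ZT4 and 648 to 689 CPM at ZT16 in nephritic mice. The order of the hours was thus opposite, without overlap within either diagnosis. Without nephritic ZT12 replicate 6, 8 members passed, without nephritic ZT4 replicate 2 or 3 0 did, and without young ZT20 replicate 3 16 did. The Rpl10 call held in 20 of 57 fits that left out 1 mouse, with adjusted p from 0.0275 to 0.103. Next came Rpl35a (adjusted p = 0.0524), Rps20, Rpl24 and Rps9, none of which passed, nor did Rplp0 (0.16), Rplp1 (0.0778), Rplp2 (0.183) or Rpsa (0.1).

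In Set 2 alone, which holds all time points in both diagnoses, 24 of 82 members passed and 9.89% of 17339 genes did. These 24 included Rps9 (adjusted p = 0.019), Rpl41 (0.02), Rplp1 (0.0252), Rplp2 (0.0379) and Rpsa (0.0378). Rps9 was 608 to 678 CPM at ZT4 and 539.6 to 557.6 CPM at ZT16 in young mice and 428.5 to 499.9 CPM and 710.1 to 727 CPM in nephritic mice. Without nephritic ZT12 replicate 6 the count in Set 2 was 21 (8.32% of all genes), and without nephritic ZT4 replicate 2 or 3 it was 13 (7.32%) and 15 (7.93%). With the name groups of the nephritic mice as a block 1 passed, Rpl35a (adjusted p = 0.0457), where 1.55% of all genes did, and 18 had an unadjusted p of at most 0.05. With both sets, DESeq2 called 14 members and limma voom 0.

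Against young mice, the remission mice had 47 members higher and 1 lower, where 21.2% of 16841 genes were higher and 20.4% lower, with a median log2 change of 0.35 (all genes 0.00). Against nephritic mice, 16 were higher and 7 lower (17% and 20.5% of all genes), with a median of 0.09. Without remission ZT12 replicate 4 the counts were 45 and 1 against young and 15 and 4 against nephritic mice, and without remission ZT0 replicate 4 they were 43 and 1 and 16 and 6. Both comparisons use the same 8 remission mice, and both set the library series of the remission mice against Sets 1 and 2, so that remission and library series cannot be told apart in them. The 4 repeat libraries give the difference between library series within the same mouse. Macrophage markers summed to 327 to 1386 CPM, T cell markers to 12.6 to 113 CPM and proximal tubule markers to 19350 to 26950 CPM in remission mice, and their part was not tested.

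Rpl35a, which is mutated in some families with Diamond-Blackfan anaemia, shows the size of this difference. It was 77.8, 83.7 and 93.6 CPM in the 8 remission mice (lowest, median, highest) and 27.3 to 50.5 CPM in all 30 young mice, a log2 change of 1.36 (SE 0.12, adjusted p = 4.6e-10). The repeats of young ZT0 replicate 3 and young ZT12 replicate 1, untreated young mice, had 81.2 and 75.97 CPM, against 36.01 and 36.4 CPM in their first libraries. The repeats thus lay within or just under the remission range and above every first library of a young mouse.

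Rpl32l was 0.349 to 2.32 CPM in remission mice, 0.0325 to 0.528 CPM in young and 0.0189 to 0.360 CPM in nephritic mice (log2 changes 2.94 and 3.05). Its repeats were 2.16 above their originals on the log2 scale on average, and it was the 1 member more than 2-fold higher in all 4 repeats (1.22% of members, 0.0794% of 17643 genes). Rps18, a protein of the head of the small subunit, was 27.9 to 40.6 CPM in remission and 17.5 to 23.7 CPM in young mice of Set 2 at ZT0 and ZT12 (log2 change 0.91, SE 0.13, adjusted p = 1.2e-06), and its repeats were 0.67 higher. Rps27l was 128 to 167 CPM in remission and 156 to 209 CPM in those young mice (log2 change -0.27, SE 0.08, adjusted p = 0.00495), and its repeats changed by -0.25. Rpl17, lower in remission than in nephritic mice (log2 change -0.71, SE 0.27, adjusted p = 0.0372), changed by -0.66 in the repeats, and Rpl39, another tunnel protein (-0.60, SE 0.13, adjusted p = 0.000403), by -0.42. Rpl29 (-0.52), Rps12 (-0.40) and Rpl7a (-0.33) were the next lowest against nephritic mice, and Rpl35a (1.44), Rps18 (0.68), Rps14 (0.64) and Rps21 (0.51) the highest after Rpl32l.

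For other members the difference of the repeats was smaller beside the change in remission. Rpl13a was 549, 713.5 and 889.8 CPM in remission and 337, 462 and 562 CPM in the young mice of Set 2 at ZT0 and ZT12 (log2 change 0.93, SE 0.17, adjusted p = 6.18e-05), and its repeats were 0.41 higher on average and 0.27 without the repeat that did not match. The lowest remission value lay below the highest young one. Rps14, the gene lost in the 5q- syndrome, was 725.5 to 1183 CPM in remission and 443 to 672 CPM in those young mice (0.83, SE 0.13, adjusted p = 4.07e-06), with repeats 0.25 higher. Rps19 was 426 to 706 CPM in remission and 281 to 385 CPM in those young mice (0.85, SE 0.13, adjusted p = 3.56e-06), with repeats 0.40 higher. Against nephritic mice Rplp2 was higher (0.42, adjusted p = 0.0397), while Rplp0 (0.09, adjusted p = 0.565), Rplp1 (0.22, adjusted p = 0.269) and Rpsa (0.02, adjusted p = 0.915) did not pass. Against young mice, Rplp0 was 647, 741 and 916 CPM in remission (log2 change 0.36, SE 0.10, adjusted p = 0.00595), with repeats 0.02 higher, and Rplp2 was 318, 407 and 505 CPM (0.74, SE 0.15, adjusted p = 0.000198), with repeats 0.27 higher. Rplp1 (0.50), Rpsa (0.44) and the paralogs Rps4l (0.49), Rpl3l (0.54) and Rpl7l1 (0.15) were also higher than in young mice, and Rpl22l1 (-0.06, adjusted p = 0.717) was not called.

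**Figure D5:**
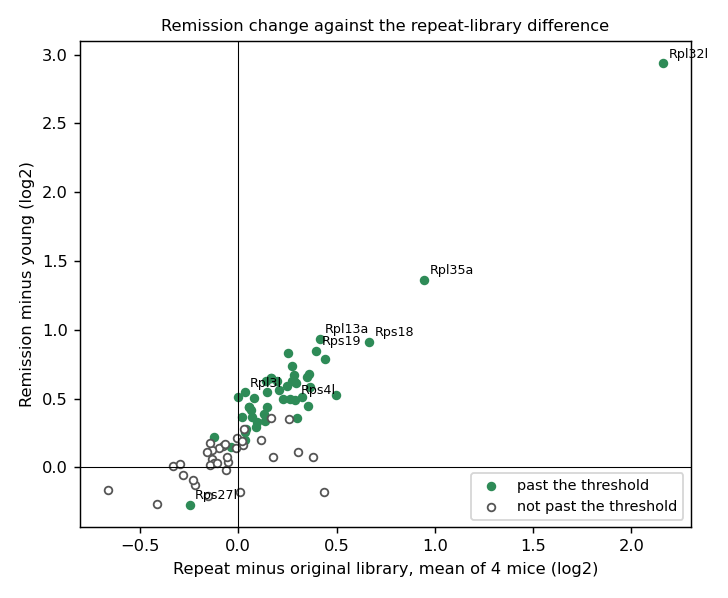
Log2 change of remission against young mice (y axis) and mean log2 difference of the 4 repeat libraries from their originals (x axis) for the 82 members; filled points pass an adjusted p of 0.05. The originals of both young repeats are among the young mice compared. Rpl32l and Rpl35a are highest on both axes, and most called members lie above 0.2 on the y axis with repeat differences under 0.5.

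With a term for the library series estimated from the 4 repeats, 11 members were higher in remission than in young mice (among them Rpl11, Rpl13a, Rpl9, Rps14, Rps16, Rps3 and Rps9) and 0 lower, where 6.88% of 16941 genes were higher and 6.94% lower, with a median of 0.34. Rps19 (adjusted p = 0.0746), Rplp0 (0.106), Rplp1 (0.232), Rplp2 (0.0752) and Rpsa (0.116) no longer passed against young mice in this fit. Against nephritic mice 4 were higher (Rpl35a, Rpl9, Rps14 and Rps3) and 0 lower, where 9.37% and 14.2% of genes were. Without the repeat that did not match its original, 3 members were higher than in young mice (Rpl9, Rps14 and Rps3), where 4.7% of 16919 genes were higher and 5.3% lower. Against nephritic mice 3 were higher, Rpl9 and Rps3 as before and Rpl3l, which had not passed with 4 repeats, while Rpl35a and Rps14 no longer passed (8.07% of genes higher and 13.2% lower). The share of members called against nephritic mice was thus below that of all genes in both fits.

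These fits treat a repeat as a further mouse. In limma voom with the mouse as a random block, added after the data had been seen, 22 members were higher and 0 lower than in young mice with 4 repeats (9.42% and 8.74% of genes) and 23 and 0 with 3 repeats (11.9% and 11.1%). Against nephritic mice the counts were 4 higher and 1 lower with 4 repeats (12% and 11.5% of genes) and 4 and 0 with 3 repeats (12.8% and 12.6%). Rpl9, Rps14 and Rps3 passed against both groups in both of these fits.

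Rps3, which lines the mRNA entry channel, was 674 to 925 CPM in remission mice, 522 to 619 CPM in young and 500.2 to 589 CPM in nephritic mice of Set 2 at ZT0 and ZT12, without overlap. In Set 1 it was 555.6 to 687 CPM in young and 657 to 814 CPM in nephritic mice, and both ranges overlapped with that of the remission mice. The set also bore on the contrast with nephritic mice. With Set 2 alone as the reference, 43 members were higher in remission and 3 lower (18.3% and 21.9% of 16384 genes), and against young mice 33 and 3 (20.5% and 20.1%).

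Between ZT0 and ZT12, 0 members differed in young, nephritic or remission mice by edgeR (3.66%, 3.52% and 0.0475% of 16841 genes), with 2, 0 and 1 at an unadjusted p of 0.05 and also 0 with RLE size factors. The median log2 ratio of ZT0 to ZT12 was -0.01 in young, 0.06 in nephritic and -0.22 in remission mice, in which 80 of 82 members were lower at ZT0. These signs are not independent, since the same few mice enter every member, and the share of all genes lower at ZT0 is not given. Without remission ZT12 replicate 4 that median was -0.28, and 9 members had an unadjusted p of at most 0.05 with 0 past the adjusted threshold (0.493% of 16819 genes passed). The share of library counts in remission mice was 3.12% ± 0.36 at ZT0 and 3.62% ± 0.46 at ZT12 (SD, n = 4 each), with overlapping ranges (2.81 to 3.53% and 3.21 to 4.24%). The largest ratios were in low or variable genes. In young mice they were those of Rpl32l (1.01), Rpl17 (-0.50) and Rps27 (-0.38), in nephritic mice of Rps4l (0.40), Rpl35a (0.26) and Rpl34 (0.22), and in remission mice of Rpl17 (-0.68), Rpl34 (0.54) and Rpl30 (0.35).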

How the data were processed

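The authors isolated poly-A RNA from perfused whole kidneys, sequenced it on an Illumina HiSeq, aligned reads to the mouse genome and deposited raw counts per gene symbol, 1 table per library, without normalization. The submitters' processing notes name HISAT and mm10, whereas the study's methods name the Burrows-Wheeler aligner with unique alignments. Strand handling is not given in the sources used here. Groups came from the labels. Counts were tested with edgeR 4.0.16 in R 4.3.3 (TMM scaling, at least 100 counts over the libraries of a fit, quasi-likelihood F test, Benjamini-Hochberg adjustment over all genes, threshold 0.05), which gave every adjusted p unless another tool is named. DESeq2 1.42.0 and limma 3.58.1 (voom, with the mouse as a random block where repeats entered) were alternatives, and the first part of the mouse name was tried as a block. Covariates were set, and time point where it was not tested. CPM are TMM-scaled. Members and lists were chosen with earlier results of these data known. Named genes were Rplp0, Rplp1, Rplp2, Rpsa and the paralogs throughout, the 5 largest changes in each direction or the 5 smallest p, the 3 largest ratios of ZT0 to ZT12, the 3 highest and lowest levels, and the 2 largest changes per list and direction. Some members are not reported here by name. Other genes named were chosen after their values were seen. Each original library is 1 mouse, and p-values measure the spread between mice. On data simulated for the comparison of nephritic with young mice, edgeR recovered 82% of 1.5-fold and 96% of 2-fold changes over 17456 genes.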

Additional observations from a re-analysis of the deposited data

Results flagged for a closer look

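The effect of nephritis differed between sets for 73 of 82 members, by a test of the difference itself. For Rplp0 the nephritic against young log2 change was 0.69 in Set 1, and the change in Set 1 exceeded that of Set 2 at ZT0 and ZT12 by 0.66 (edgeR adjusted p = 0.000571). The counts were 71 to 75 when single mice were left out. What separates the sets was not tested, and within Set 1 diagnosis and name group cannot be told apart.

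The course of Rpl10 over the day differed between nephritic and young mice (edgeR adjusted p = 0.0428). It was the 1 member so called, and the call was lost in 37 of 57 fits without 1 mouse.

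Rpl32l was higher in the 4 repeat libraries than in the first libraries of the same mice, by 2.16 on the log2 scale on average and by 1.87 without the repeat that did not match its original. Within-mouse differences ran from 1.39 to 3.03. Its counts were low, at 0.0757 to 0.2098 CPM in the first libraries and 0.6186 to 1.13 CPM in the repeats.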

How the results depend on the processing

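No paired analysis was possible between groups or time points, because each original library is 1 mouse and the labels carry no replicate numbers. The numbers used here were given in accession order. For the nephritic mice of Set 2, the first part of the mouse name served as a block in place of a pairing. Only the 4 repeat libraries are paired, and they were compared with their originals within the mouse. Of 107 counts of members under another setting, 75 stayed within 1.5 times and 32 did not, and of 1108 values for named genes 16 changed sign. For nephritic against young mice the count of 23 became 76 in Set 1 alone, 8 in Set 2 alone 7 in Set 2 at ZT0 and ZT12, and 2 there without nephritic ZT12 replicate 6. Rpl7l1 (0.20), Rps27l (0.19) and Rps4l (0.76) changed sign in Set 1 alone, and Rpsa (-0.022) in Set 2 at ZT0 and ZT12. The time test in young mice gave 19 with DESeq2, 15 without the set covariate and 4 in Set 2 alone, and that in nephritic mice 1 without the set covariate 0 with a 24 h cosine and 2 in Set 2 with the name block. The difference in time course gave 0 with RLE size factors, with scaling without the members, without the filter, with voom, with the repeats and with a cosine, 14 with DESeq2 and 24 in Set 2 alone, where it was 21, 13 and 15 without nephritic ZT12 replicate 6 and ZT4 replicates 2 and 3, and 1 with the name block. At ZT4 the count fell to 13 with RLE factors and without the filter. Remission against nephritic mice gave 46 in Set 2 alone, 4 with the series term from 4 repeats and 3 from 3 repeats, and against young mice 11 and 3. In voom with the mouse as a block these were 5 and 4, and 22 and 23. With 4 and 3 repeats, Rpl17 (0.33, 0.48) and Rps27l (0.063, 0.063) changed sign against nephritic and Rps27l (0.052, 0.052) against young mice, as did Rps18 (-0.056) with 3. In voom with the mouse block, Rps27l (0.00195 with 4 and 0.0496 with 3 repeats), Rps12 (0.035) and Rps18 (-0.012) changed sign against nephritic and Rps27l (0.0303) against young mice. The cause was not tested. Without 1 mouse the count ran from 20 to 38 for nephritic against young mice (38 without nephritic ZT4 replicate 3), 3 to 30 for time in young, 34 to 55 for time in nephritic mice, 0 to 16 for the difference in time course (16 without young ZT20 replicate 3), 18 to 26 and 40 to 50 for remission against nephritic and young mice, 9 to 41 at ZT0 (9 without nephritic replicate 4, 41 without replicate 5), 6 to 24 at ZT4, 3 to 36 at ZT12, 0 to 3 at ZT16, 3 to 10 in Set 2 and 70 to 76 in Set 1. With 3 or 4 mice per time point, small shifts were poorly resolved. In data simulated for nephritic time courses, 10% of 1.5-fold and 49% of 2-fold changes at ZT16 were recovered over 16798 genes.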
